A study of Mus musculus with 6 samples.

Results

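The genes described are those of the oxygen-binding globins measured in this tissue, namely neuroglobin (Ngb), cytoglobin (Cygb), the adult alpha globins Hba-a1 and Hba-a2 and the adult beta globins Hbb-bs and Hbb-bt, together with Alas2, which encodes the red cell form of the first enzyme of heme synthesis. They are 7 of the 51826 genes of the deposited table, found by their symbols, and all 7 passed the filter on low counts that left 18956 genes for testing. The choice was prompted by Ngb, which was selected on its lower counts in knockout than in wild-type libraries, so its genotype values are given as a description without a test. Hemoglobin genes and Alas2 were added as relatives and as markers of red blood cells.

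Messenger RNA was sequenced from 6 mouse libraries whose source is labelled as paraventricular nucleus of the hypothalamus. The 3 libraries labelled WT come from wild-type mice and the 3 labelled KO from mice with a glutamatergic neuronal ADAM17 knockout, with replicates 1 and 2 from males and replicate F1 from a female in each genotype. Values per library are given in the order 1, 2, F1. The stated comparison asked how loss of this protease in glutamatergic neurons affects expression in the nucleus. Strain, age, the Cre driver, the deleted exons, whether controls carry a conditional allele, any treatment, and whether a library is 1 mouse or a pool are not stated in the labels, so p-values measure only the spread between these libraries.

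Globins carry a heme group whose iron binds oxygen. The hemoglobin of red blood cells is a tetramer of alpha and beta chains, and its messenger RNA persists in young red cells after the nucleus is lost. Neuroglobin is a globin of neurons, known to be abundant in parts of the hypothalamus, and cytoglobin is found in fibroblast-like cells, in pericytes and in some neurons; both can react with nitric oxide. Blood left in vessels is the usual source of hemoglobin transcripts in dissected brain, although low expression in neurons and glia is also known.

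The hemoglobin genes moved together between libraries, and any part of their promoters in this was not tested. For reference, the 250 bases upstream of RefSeq start sites are shown (GRCm38.p6, gene strand, read from the 5′ end). Each window reaches into the gene as deposited, whose coordinates begin upstream of the RefSeq start. Capitals mark 4 motifs of erythroid and core promoters on either strand, namely GATAA or GATAG preceded by A or T (the GATA motif), CCNCNCCC (the CACC-type motif of KLF factors), the CCAAT box and the TATAA box.
Hba-a1, chr11:32283422-32283671, plus strand: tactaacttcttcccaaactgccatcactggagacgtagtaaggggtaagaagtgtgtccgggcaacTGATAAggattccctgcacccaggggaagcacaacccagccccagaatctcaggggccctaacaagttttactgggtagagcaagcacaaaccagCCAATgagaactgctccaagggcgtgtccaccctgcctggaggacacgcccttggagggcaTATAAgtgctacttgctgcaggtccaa
Hbb-bs, chr7:103827929-103828178, minus strand: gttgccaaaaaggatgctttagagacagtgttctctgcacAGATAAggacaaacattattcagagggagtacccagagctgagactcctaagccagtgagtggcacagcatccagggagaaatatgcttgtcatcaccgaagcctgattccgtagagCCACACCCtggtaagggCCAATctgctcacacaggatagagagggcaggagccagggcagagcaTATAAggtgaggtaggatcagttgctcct
Hbb-bt, chr7:103813924-103814173, minus strand: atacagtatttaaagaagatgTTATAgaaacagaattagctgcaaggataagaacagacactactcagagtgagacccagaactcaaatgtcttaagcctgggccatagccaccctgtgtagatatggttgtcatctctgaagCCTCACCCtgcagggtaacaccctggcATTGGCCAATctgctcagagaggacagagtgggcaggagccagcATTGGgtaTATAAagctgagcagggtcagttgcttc
Alas2, chrX:150547167-150547416, plus strand: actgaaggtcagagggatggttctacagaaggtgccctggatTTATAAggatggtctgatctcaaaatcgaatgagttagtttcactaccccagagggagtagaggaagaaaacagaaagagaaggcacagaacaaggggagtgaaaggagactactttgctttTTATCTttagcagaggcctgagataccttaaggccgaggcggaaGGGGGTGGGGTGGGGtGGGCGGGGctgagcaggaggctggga
Entries for Ngb and Cygb were not matched.

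The Hba-a2 window is not printed because 247 of its bases are identical to those of Hba-a1 at a shift of 3. Hbb-bs and Hbb-bt had a longest identical run of 14 bases. At the shift that holds this run they were identical at 51% of positions, with no gaps allowed, so this is not an aligned identity. Each alpha gene held 1 GATA, 1 CCAAT and 1 TATAA match and no CACC-type match. Hbb-bs held 1 match of each of the 4 motifs. Hbb-bt held 1 CACC-type, 3 CCAAT and 2 TATAA matches and no GATA match in this window, and in it a CCAAT match adjoins the opposite-strand form of the same motif. In Alas2 there were 1 GATA match and 2 TATAA matches, the latter overlapping each other, no CCAAT match, and 4 CACC-type matches, of which some overlap. Among 32851 promoter windows of the same length the GATA motif occurred in 26.5%, the CACC-type motif in 45.9%, CCAAT in 33.8% and TATAA in 22.8%, so that none of these matches is rare.

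In the deposited coordinates, identical to GENCODE M21 on GRCm38 for all 7 genes, Ngb lies on chromosome 12 (87097531 to 87102539, minus strand), Cygb on chromosome 11 (116645595 to 116654313, minus strand) and Alas2 on chromosome X (150547375 to 150570638, plus strand). Hba-a1 (32283511 to 32284465) and Hba-a2 (32296489 to 32297298) lie on the plus strand of chromosome 11, and Hbb-bs (103826534 to 103828096) and Hbb-bt (103812524 to 103813996) on the minus strand of chromosome 7. Ngb and Cygb have 4 exons, the hemoglobin genes 3 and Alas2 11. The coding length is 456 bases in Ngb and 573 in Cygb, against 429 in both alpha and 444 in both beta genes.

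Paralogs of a pair cannot be separated fully by short reads. Hba-a1 and Hba-a2 differ at 1 of 429 coding bases, and 56.5% of the 100-base windows of the Hba-a1 transcript also occur in Hba-a2. For Hbb-bs and Hbb-bt the coding difference is 1 of 444 bases, and 62.6% of the 100-base windows of Hbb-bs occur in Hbb-bt. That difference lies in exon 3 and is the capital in the 2 stretches that follow, coding bases 397 to 436 counted from the start codon, shown because it is the only coding base that tells the beta genes apart in this reference.
Hbb-bs, chr7:103826673-103826712, minus strand: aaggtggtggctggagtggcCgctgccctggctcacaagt
Hbb-bt, chr7:103812664-103812703, minus strand: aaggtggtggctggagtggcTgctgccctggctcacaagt
The labels state neither read length nor the treatment of shared reads, so the values of single paralogs are uncertain while their sums are less so. Ngb and Cygb share no window of 50 bases. Cygb overlaps the opposite-strand gene Prcd and Alas2 overlaps Apex2, and the counting strand is not given.

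Libraries held between 35114426 and 54421330 counts, and 3 counts, the limit that a count of 0 allows, correspond to 0.0509 to 0.104 CPM (counts relative to library size, after TMM scaling), for counting error only. Mitochondrially encoded genes took 20.63% of the counts in KO replicate 1 and 7.219% to 9.198% in the other 5. Adam17 stood at 17.1, 17.2 and 15.6 CPM in the WT libraries and at 15.4, 14.5 and 13.9 CPM in the KO libraries (log2 fold change -0.19, SE 0.11, edgeR adjusted p = 0.747). The tissue label was checked against marker genes. Sim1, which specifies paraventricular neurons, lay between 0.626 and 2.51 CPM. Of the hormone genes of these neurons, Avp lay between 5.25 and 38.2 CPM, Oxt between 4.0 and 27.6 CPM and Crh between 5.47 and 8.09 CPM. The forebrain factor Neurod6 lay between 54.6 and 113 CPM and the striatal receptor Drd2 between 27.3 and 87.5 CPM.

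Per length, the beta globin Hbb-bs was the most abundant of the 7 transcripts and Alas2 the least. In the authors' TPM values, scaled to transcript length and library total, which allow levels of different genes to be compared, WT means were 453 ± 48.6 for Hbb-bs, 374 ± 46.7 for Hba-a2, 328 ± 40.8 for Hba-a1, 108 ± 26.6 for Hbb-bt, 77.5 ± 16.3 for Cygb, 15.2 ± 5.11 for Ngb and 5.29 ± 0.634 for Alas2 (SD, n = 3). KO means were 400 ± 289, 345 ± 208, 303 ± 185, 105 ± 75.2, 65.9 ± 11.2 and 7.75 ± 3.55 TPM in the same order (SD, n = 3), and Alas2 lay between 2.32 and 6.69 TPM. The order held in all 6 libraries except that Hbb-bs was above Hba-a2 in 5 of 6 and Hbb-bt above Cygb in 5 of 6, KO replicate 1 being the exception in both cases. Neighbours in this order whose WT libraries overlap are Hbb-bs and Hba-a2, Hba-a2 and Hba-a1, and Hbb-bt and Cygb. Ngb TPM was 20.8%, 15.5% and 21.8% of Cygb TPM in the WT libraries, and 8.91%, 10.1% and 15.1% in the KO libraries.

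Neuroglobin was the member with the lowest KO level relative to WT. On the CPM scale with TMM scaling, used from here on for comparing libraries, Ngb stood at 9.3, 7.63 and 13.9 CPM in the WT libraries, from 421, 324 and 820 counts. In KO replicates 1, 2 and F1 it stood at 5.11, 5.03 and 8.19 CPM, from 147, 225 and 334 counts. Both male KO libraries lay below every WT library, whereas the female KO library lay above WT replicate 2, so the genotypes overlapped. Group means were 10.3 ± 3.26 CPM for WT and 6.11 ± 1.8 CPM for KO (SD, n = 3), and the fitted log2 fold change was -0.75 (SE 0.14), a KO level of 0.595 times WT. The difference was about equal in both sexes, at -0.74 in the male means and -0.77 between the female libraries. Leaving out each library in turn gave values from -0.83 to -0.67. Without WT replicate F1 and KO replicate 1, and with no sex term, a choice made after seeing the data, it was -0.36. That fit sets male WT replicates 1 and 2 against KO replicates 2 (male) and F1 (female). Its value therefore takes in part of any sex difference and is not one of genotype alone. For Ngb the sex difference, female minus male, was 0.7 (SE 0.14).

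**Figure D1:**
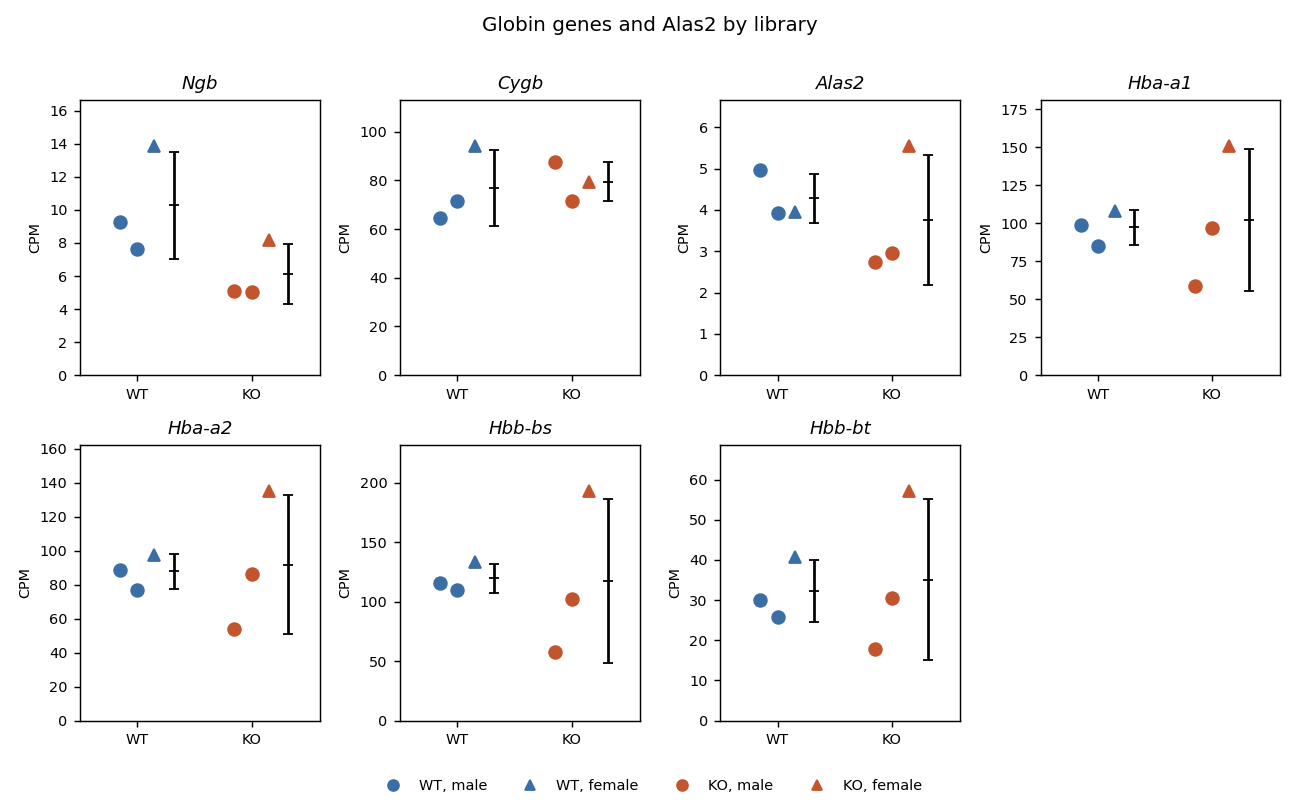
Level of each of the 7 genes in CPM (TMM scaled) by genotype; each point is a library, triangles are the female libraries, and the bar beside them is the mean ± SD over 3 libraries. Ngb stood between 7.63 and 13.9 CPM in WT and between 5.03 and 8.19 CPM in KO, while the hemoglobin genes spread most widely in KO.

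Some markers of paraventricular neurons shared the order of the 3 highest libraries of Ngb and others did not. WT replicate F1, WT replicate 1 and KO replicate F1 held the 3 highest values of Ngb, and the same 3 libraries in the same order held the highest values of Avp, which encodes vasopressin, of Oxt, which encodes oxytocin, and of Sim1. Avp stood at 27.7, 5.96 and 38.2 CPM in the WT libraries and at 5.25, 8.34 and 13.8 CPM in the KO libraries. Oxt stood at 24.8, 5.75 and 27.6 CPM in WT and at 8.27, 4.0 and 15.1 CPM in KO, and Sim1 at 1.24, 0.683 and 2.51 CPM in WT and at 1.01, 0.626 and 1.1 CPM in KO. The genotypes overlapped in all 3 genes. The lower libraries did not follow the order of Ngb. WT replicate 2 was above both male KO libraries in Ngb, at 7.63 CPM against 5.11 and 5.03 CPM. In Avp it was below KO replicate 2, and in Oxt and Sim1 below KO replicate 1. The other 5 markers of the list, Otp, Trh, Crh, Pou3f2 and Sst, did not have this order: Crh and Pou3f2 were lowest in WT replicate F1, at 5.47 and 23.2 CPM, and Sst was highest in KO replicate 2. In bulk tissue, fewer cells of a type and less RNA per cell cannot be told apart. Over the whole list of 8 paraventricular markers, whose summed level lay between 261 and 332 CPM in WT and 275 and 311 CPM in KO, 3 had log2 fold changes above 0 and 5 below, with a median of -0.34 against -0.004 over all genes tested. That median was 0.05 without either female library, which leaves the male comparison, -0.03 without WT replicate 1, -0.57 without KO replicate 1, -0.23 without KO replicate 2 and -0.75 without WT replicate 2. With the mean of that list as a covariate, a choice made after seeing the data, the Ngb value was -0.66. Markers of other regions are given for comparison. Of 13 markers of other hypothalamic neurons 11 had log2 fold changes below 0 (median -0.73, and -1.12 to -0.35 with each library left out), with sums of 116 to 165 CPM in WT and 126 to 160 CPM in KO. All 8 markers of cortex and hippocampus were above 0 (median 0.39), 4 of them at an unadjusted p under 0.05 (6.38% of all genes), with sums of 288 to 439 CPM in WT and 383 to 577 CPM in KO. All 7 striatal markers were above 0 (median 0.37), with sums of 401 to 1260 CPM in WT and 900 to 1170 CPM in KO. The lowest sum was that of WT replicate F1, and the striatal median was -0.18 without either female library, 0.73 without WT replicate 1 and 0.68 without KO replicate 1. None of these genes passed in edgeR or DESeq2, and the part of tissue composition in the Ngb difference was not tested.

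**Figure D2:**
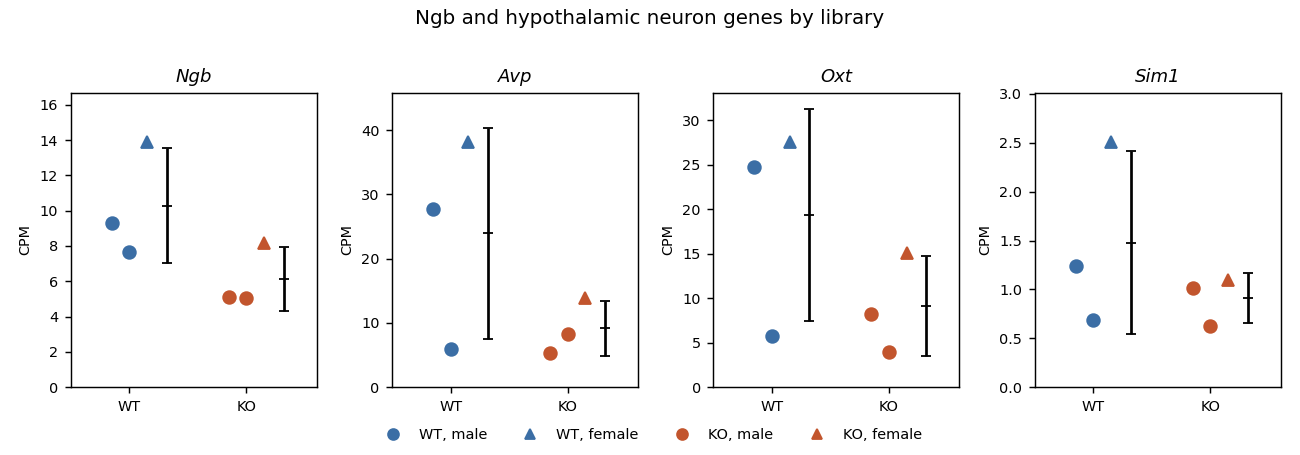
Ngb beside Avp, Oxt and Sim1 in CPM by genotype, each point a library, triangles the female libraries, with mean ± SD over 3 libraries. In each panel the female WT library is the highest, at 13.9 CPM for Ngb and 38.2 CPM for Avp.

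Genes beside Ngb on chromosome 12 showed no such difference. Pomt2, a protein O-mannosyltransferase gene 4322 bases away, had a log2 fold change of -0.08 (SE 0.1), Tmem63c, an ion channel gene 7488 bases away on the other side, of 0.16 (SE 0.1), Gstz1 of 0.08 (SE 0.13) and Zdhhc22 of 0.04 (SE 0.19), and none passed the test (edgeR adjusted p between 0.768 and 0.961). By the smallest root mean square difference of log2 CPM centred on each gene's mean, over 6 libraries and 15454 genes, the genes most like Ngb were Cda, a cytidine deaminase (0.051), Chodl, a membrane lectin (0.122), Itih3, a matrix-associated protein (0.123), Nynrin (0.16) and Ctxn2 (0.168). Itih3, the most abundant of them, stood at 47.2, 37.5 and 80.8 CPM in the WT libraries and at 32.3, 26.1 and 44.1 CPM in the KO libraries. The library order of Itih3 is that of Ngb.

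Cytoglobin did not follow neuroglobin. Cygb stood at 64.5, 71.7 and 94.3 CPM in the WT libraries and at 87.5, 71.7 and 79.2 CPM in the KO libraries, so that all KO values lay within the WT range. Means were 76.8 ± 15.5 CPM for WT and 79.5 ± 7.91 CPM for KO (SD, n = 3), with a log2 fold change of 0.07 (SE 0.14, 95% interval -0.28 to 0.41, edgeR adjusted p = 0.916). Its sign depended on the scaling, at -0.11 with library totals and -0.22 on log2(TPM + 1). Cygb was lower in KO in the female pair (-0.25) and higher in the male means (0.22), and a test of that difference did not pass (log2 -0.48, SE 0.26, edgeR adjusted p = 0.82). Among markers of the cells that hold cytoglobin, 10 brain fibroblast genes had a median log2 fold change of 0.04 (-0.19 to 0.2 with each library left out) and 9 pericyte genes of 0.09 (-0.01 to 0.16). None of these 19 genes passed in edgeR or in DESeq2, and none had an unadjusted p under 0.05, where 6.38% of all genes did. Fibroblast markers summed to between 160 and 244 CPM in WT and between 183 and 234 CPM in KO, with Islr at 0.39 (SE 0.17), Col3a1, a fibrillar collagen, at -0.74 (SE 0.38) and Ogn at 0.26 (SE 0.25). Pericyte markers summed to between 229 and 291 CPM in WT and between 260 and 283 CPM in KO, with Higd1b at -0.53 (SE 0.23), Abcc9 at 0.35 (SE 0.19) and the signalling regulator Rgs5 at 0.27 (SE 0.18). Rhbdf2, which encodes a partner of ADAM17 and is the nearest tested neighbour of Cygb on the lower side, stood between 1.76 and 2.88 CPM (log2 fold change -0.14, SE 0.25). Ube2o, the next, had a log2 fold change of -0.08 (SE 0.12). On the higher side 2 genes carry the symbol St6galnac2, one 20990 bases away at -0.06 (SE 0.15) and one 23170 bases away at 0.87 (SE 0.35, edgeR adjusted p = 0.735), and reads of genes that share a symbol may not be separated.

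Blood hemoglobin transcripts differed more between libraries of a genotype than between genotypes. Summed over the 4 adult genes they stood at 333, 298 and 378 CPM in the WT libraries, and at 187, 315 and 536 CPM in the KO libraries. KO thus held both the lowest and the highest library, 2.86 times apart, while the WT libraries lay between them. The lowest was KO replicate 1, the library with 20.63% mitochondrial counts, and without it the highest was 1.8 times the lowest. Hbb-bs stood at 116, 110 and 133 CPM in WT and at 57.3, 102 and 193 CPM in KO, a spread of 1.21 times in WT and 3.37 times in KO. For comparison, the median spread of 15455 genes with a mean of at least 1 CPM was 1.19 times in WT and 1.3 times in KO. Hba-a1 stood at 98.7, 85.2 and 108 CPM in WT and at 58.4, 96.5 and 151 CPM in KO. Hba-a2 and Hbb-bt followed the same library order in KO, with Hba-a2 between 53.9 and 135 CPM and Hbb-bt between 17.7 and 57.1 CPM.

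None of the 4 hemoglobin genes passed the genotype test. Log2 fold changes were 0.00 (SE 0.23, 95% interval -0.56 to 0.55) for Hba-a1, 0.00 (SE 0.22, -0.54 to 0.53) for Hba-a2, -0.15 (SE 0.29, -0.86 to 0.56) for Hbb-bs and 0.02 (SE 0.24, -0.56 to 0.6) for Hbb-bt, with edgeR adjusted p between 0.907 and 0.999. Of the 6 members other than Ngb, 0 passed in edgeR, where 0.00528% of all genes did, and 0 passed in DESeq2 (0.396% of all genes). An unadjusted p under 0.05 in edgeR was found in 0 of the 6, where 6.38% of all genes had one. The genotypes overlapped in all 7 members, where 13.9% of all genes showed no overlap and 7.32% showed none with KO lower. Without KO replicate 1, the library rich in mitochondrial counts, the values turned to 0.25 for Hba-a1, 0.24 for Hba-a2, 0.16 for Hbb-bs and 0.28 for Hbb-bt, and none passed.

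**Figure D3:**
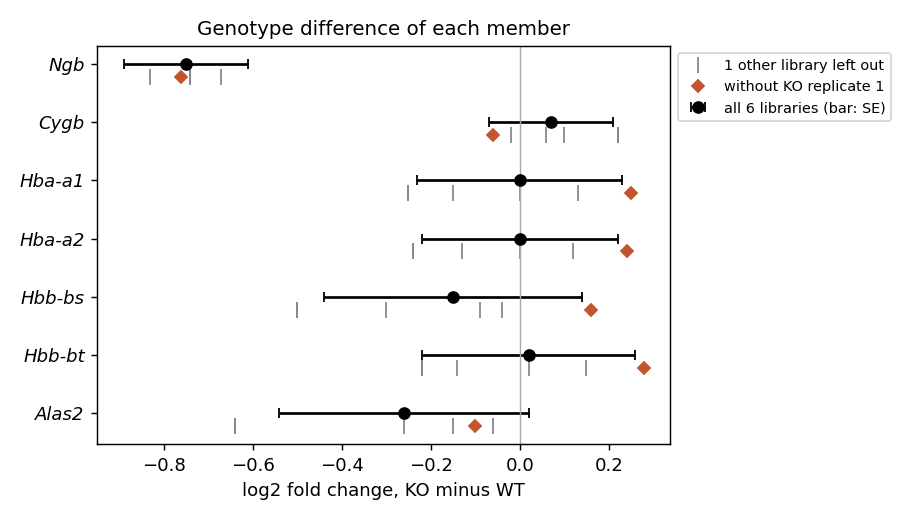
Log2 fold change, KO minus WT, of each of the 7 genes with all 6 libraries (black, bar ± SE), without KO replicate 1 (orange) and with each other library left out (grey). Ngb, which was chosen on this contrast, lies between -0.83 and -0.67 with 1 library left out. The hemoglobin genes lie on both sides of 0.

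Alas2, whose product supplies heme to developing red cells, stood at 4.97, 3.93 and 3.94 CPM in the WT libraries and at 2.74, 2.95 and 5.56 CPM in the KO libraries. Both male KO libraries were below every WT library and the female KO library was above them all. The log2 fold change was -0.26 (SE 0.28, 95% interval -0.92 to 0.41, edgeR adjusted p = 0.831). As a share of Alas2 and hemoglobin counts together, Alas2 made up 1.47%, 1.3% and 1.03% in WT and 1.44%, 0.927% and 1.03% in KO. The 95% Wilson intervals ran from 1.29% to 1.67% in WT replicate 1 and from 0.782% to 1.1% in KO replicate 2, so these shares differed beyond counting error.

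Summed endothelial markers and summed erythroid markers had the library order of hemoglobin within each genotype, in both cases partly by near ties. The red cell gene Slc4a1 and the neutrophil gene S100a9 did not have it in WT. The 12 endothelial markers summed to 343, 338 and 407 CPM in WT and to 332, 336 and 400 CPM in KO, a narrower range than that of hemoglobin. Slc4a1, the anion exchanger of the red cell membrane, had 158, 2 and 18 counts in the WT libraries and 0, 0 and 14 counts in the KO libraries. Gata1, an erythroid transcription factor, had 10, 0 and 0 counts in WT and 0, 2 and 0 in KO. Klf1, the factor that activates beta globin genes in red cell precursors, had between 5 and 26 counts. Of 15 erythroid genes listed, 14 were matched and 4 passed the filter on low counts, and the summed level of the 14 was 9.7, 5.04 and 9.73 CPM in WT and 3.3, 3.35 and 5.91 CPM in KO. WT replicate 1 was highest in Slc4a1, Gata1 and the neutrophil gene S100a9 (24.8 CPM against 0.556 to 3.24 CPM in the other 5), yet its hemoglobin sum of 333 CPM lay in the middle of the 6 libraries. The sum of 10 blood leukocyte genes lay between 10.1 and 84.6 CPM in WT and between 7.5 and 10.2 CPM in KO; 7 of the 10 were tested, 0 passed in edgeR or DESeq2, and 1 had an unadjusted p under 0.05 (6.38% of all genes). Beside Alas2 on chromosome X, Pfkfb1 had a log2 fold change of 0.7 (SE 0.33), Tro of 0.46 (SE 0.19), Lrch2 of 0.27 (SE 0.19) and Tmem29 of -0.05 (SE 0.12), none past the edgeR threshold. The part of residual blood in the spread of hemoglobin was not tested.

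**Figure D4:**
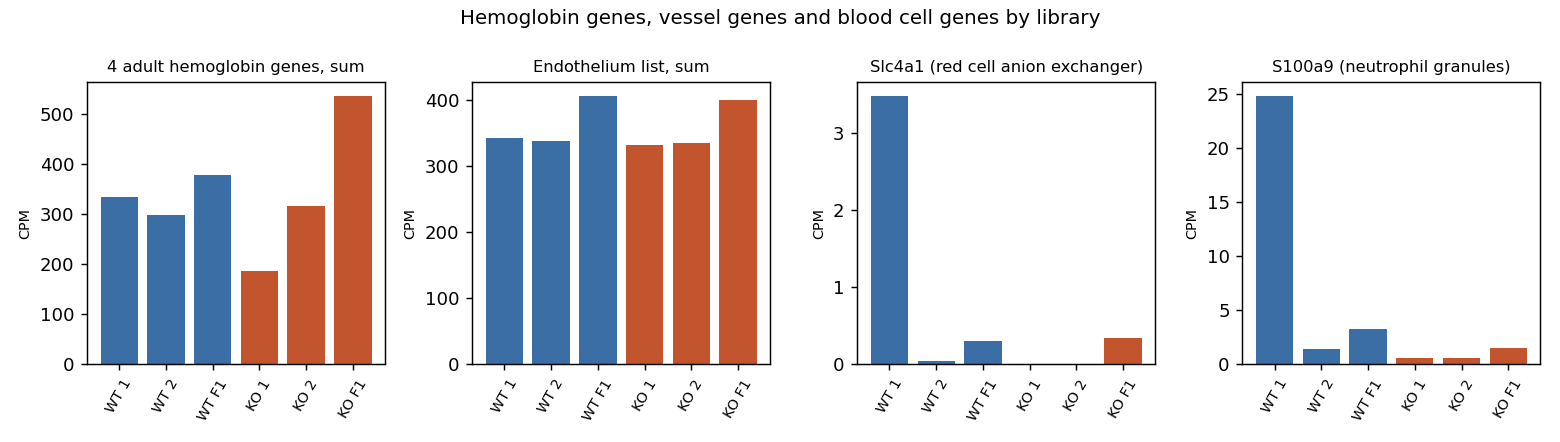
CPM in each library of the 4 adult hemoglobin genes together, of 12 endothelial markers together, of Slc4a1 and of S100a9; blue bars are WT and orange bars KO. Hemoglobin ranges from 187 to 536 CPM while the endothelial sum ranges from 332 to 407 CPM, and WT replicate 1 stands apart in Slc4a1 and S100a9 but not in hemoglobin.

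The share of Hbb-bs among beta counts and of alpha among all hemoglobin counts varied, while that of Hba-a1 among alpha counts hardly did. Hba-a1 took 52.7%, 52.5% and 52.5% of alpha counts in the WT libraries and 52%, 52.8% and 52.7% in the KO libraries, with overlapping 95% Wilson intervals throughout. Hbb-bs took 79.4%, 80.9% and 76.5% of beta counts in WT, and 76.4%, 77.1% and 77.2% in KO. The intervals of the male WT libraries, 78.4% to 80.3% and 79.9% to 81.9%, did not reach those of the female WT library (75.7% to 77.4%) or of the KO libraries (together 74.6% to 78.2%). The alpha share of all hemoglobin counts was highest in KO replicate 1, at 60% (58.7% to 61.3%), followed by KO replicate 2 at 57.9% (57.1% to 58.7%), and lay between 53.4% and 56.2% in the other 4 libraries. These intervals cover counting error only, and no test between genotypes was made on them. The assignment of reads shared within a pair is not stated, and the shares within a pair may depend on it.

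**Figure D5:**
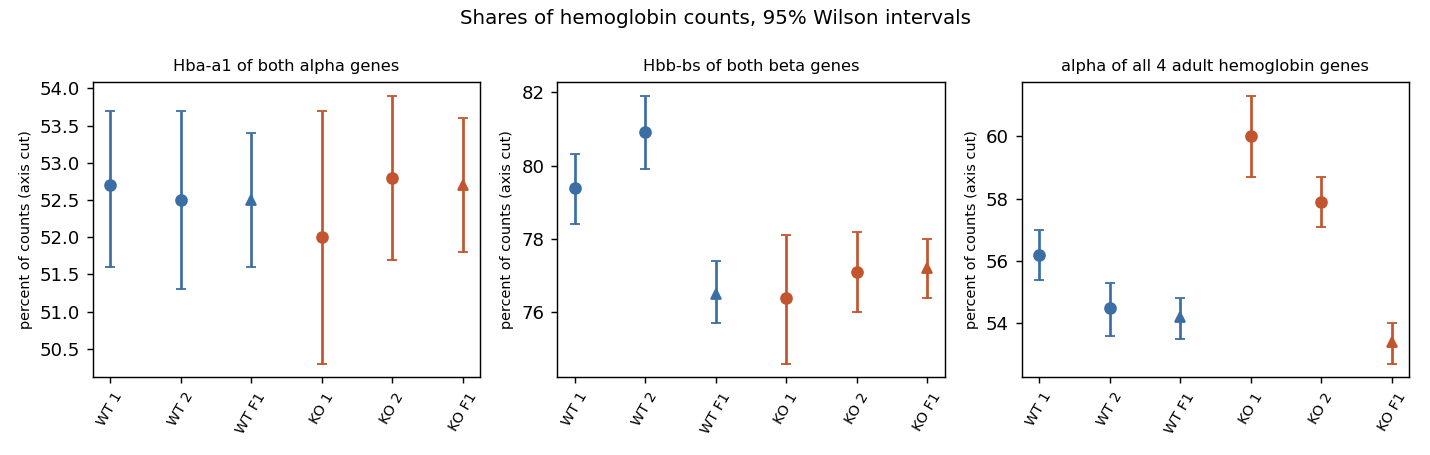
Share of counts, in percent, of Hba-a1 among alpha genes, of Hbb-bs among beta genes and of alpha among all 4 adult hemoglobin genes in each library, with 95% Wilson intervals; WT is blue, KO orange, triangles are female libraries, and the axes do not start at 0. The Hba-a1 share stays between 52% and 52.8%, while the Hbb-bs share is highest in the male WT libraries and the alpha share in KO replicate 1.

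The remaining globins were rare. Of 9 others, the embryonic genes Hba-x, Hbb-y and Hbb-bh1 and the genes Hbb-bh0 and Hbb-bh2 had 0 counts in every library, which allows up to 0.104 CPM in KO replicate 1, the shallowest. Myoglobin (Mb), the oxygen store of muscle, had 21, 17 and 32 counts in WT and 6, 17 and 27 in KO. Adgb, the androglobin gene, stood between 0.777 and 1.26 CPM in WT and between 0.648 and 1.25 CPM in KO. The theta globin genes Hbq1a and Hbq1b, which sit among the alpha genes, had between 5 and 17 counts. None of the 4 tested passed in edgeR, and none had an unadjusted p under 0.05 (6.38% of all genes). None passed in DESeq2, which gave Hbq1b no adjusted p. The gene Nprl3, whose introns are known to hold alpha globin enhancers, stood between 21.3 and 24.8 CPM (log2 fold change 0.03, SE 0.11), within a far narrower range than the alpha genes. Around the beta genes the nearest tested genes were olfactory receptor and Trim genes at or below 2.39 CPM.

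Sex was a contrast that the choice of genes did not use. In 5 of the 7 genes, Ngb and the 4 hemoglobin genes, the female library was above both male libraries in both genotypes, where 12% of all genes showed this. Log2 differences, female minus male, were 0.7 (SE 0.14) for Ngb, 0.91 (SE 0.25) for Hbb-bt, 0.79 (SE 0.3) for Hbb-bs, 0.61 (SE 0.24) for Hba-a1, 0.61 (SE 0.23) for Hba-a2, 0.42 (SE 0.29) for Alas2 and 0.24 (SE 0.15) for Cygb. The same 5 genes had an unadjusted p under 0.05, where 4.58% of all genes did, but 0 of the 7 passed in edgeR (adjusted p between 0.898 and 0.941; 0.0422% of all genes passed). The 4 hemoglobin genes are not independent of each other. DESeq2 called Ngb alone of the 7 (adjusted p = 0.0475; 0.274% of all genes), with 13.9 and 8.19 CPM in the female WT and KO libraries against 5.03 to 9.3 CPM in the males. With 2 female libraries, the female WT library, which was also highest in Avp, Oxt and Sim1, weighs heavily in this contrast.

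For hemoglobin and Alas2 the genotype difference pointed opposite ways in the sexes. In the male means it was -0.64 for Alas2, -0.5 for Hbb-bs and between -0.25 and -0.22 for the other 3, and between the female libraries it was 0.5, 0.54 and 0.47 to 0.49. The interaction was 1.14 (SE 0.39, edgeR adjusted p = 0.539) for Alas2 and 1.04 (SE 0.46, adjusted p = 0.729) for Hbb-bs. None of the 7 passed in edgeR (0.0739% of all genes did) or in DESeq2 (1.25%), and only Alas2 had an unadjusted p under 0.05 in edgeR (7.42% of all genes). For Hba-a1, Hba-a2 and Hbb-bt the male difference rests on KO replicate 1. KO replicate 2, at 96.5, 86.2 and 30.4 CPM, was above the male WT means of 91.9, 82.9 and 28 CPM. For Hbb-bs and Alas2 both male KO libraries were below the male WT means of 113 and 4.45 CPM. The female difference rests on 1 library a genotype.

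Genes that make heme did not move as a group. Of 12 heme synthesis genes 4 had log2 fold changes above 0 and 8 below, with a median of -0.05, and 0 passed in edgeR or DESeq2, with 2 at an unadjusted p under 0.05 (6.38% of all genes). With each library left out the median lay between -0.13 and 0.04. Fech, which inserts iron into the ring, stood at 65.5, 67.5 and 64.4 CPM in WT and 87.9, 81.8 and 71.1 CPM in KO (0.28, SE 0.1, edgeR adjusted p = 0.735). Uros stood at 16.5, 16.6 and 12.2 CPM in WT and 8.82, 11.5 and 12 CPM in KO (-0.47, SE 0.19, adjusted p = 0.735). Fech and Cpox had no overlap between genotypes with KO higher, and Uros and Urod had none with KO lower. Of all genes 13.9% showed no overlap. Cpox had a log2 fold change of 0.42 (SE 0.2), with 79.8 CPM in KO replicate 1 against 42.6 to 49.5 CPM elsewhere. Alas1, the form of the first enzyme used outside red cells, had a log2 fold change of 0.09 (SE 0.11). Per length it stood at 46.3 ± 3.08 TPM in WT and 37.9 ± 12.5 TPM in KO (SD, n = 3), above Alas2 at 5.29 and 4.17 TPM.

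No gene of heme breakdown or iron handling passed the genotype test. Of 14 genes of heme breakdown and transport 5 were above 0 and 9 below (median -0.05). None of them had an unadjusted p under 0.05, where 6.38% of all genes did. Cd163, the macrophage receptor that takes up hemoglobin, stood at 3.27, 3.86 and 3.45 CPM in WT and at 4.13, 4.18 and 5.37 CPM in KO (0.36, SE 0.18, edgeR adjusted p = 0.738). Lrp1 had a log2 fold change of -0.12 (SE 0.09), and Hp, which encodes the hemoglobin-binding haptoglobin, stood at 2.89 CPM in WT replicate 1 against 0.259 to 0.662 CPM in the other 5. Of 16 iron genes 6 were above 0 and 10 below (median -0.08), and 1 had an unadjusted p under 0.05 (6.38% of all genes), Ncoa4, the receptor for ferritin turnover (-0.26, SE 0.11). The other iron genes next in order were Trf, which encodes transferrin, at -0.18 (SE 0.09) and Ireb2, an iron sensor, at -0.2 (SE 0.1). Neither list had a call in edgeR or DESeq2.

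Partners of globins in reduction and nitric oxide signalling held 14 genes, 8 above 0 and 6 below (median 0.03), with 3 at an unadjusted p under 0.05 (6.38% of all genes) and 0 past the edgeR or DESeq2 threshold. Cyb5a, the cytochrome b5 that reduces globin iron, stood at 38.3, 41.2 and 32.5 CPM in WT and at 28.8, 24.2 and 26.3 CPM in KO (-0.49, SE 0.12, edgeR adjusted p = 0.735). Its genotypes did not overlap, as in 13.9% of all genes. Gucy1a1, a subunit of the nitric oxide receptor, had a log2 fold change of 0.33 (SE 0.11), and Cyb5r4, a reductase, of 0.27 (SE 0.11). Nos1, the neuronal nitric oxide synthase, stood between 57.1 and 99.8 CPM in WT and between 66.1 and 90.9 CPM in KO (-0.08, SE 0.23).

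The hypoxia list, included because globins serve oxygen supply, had 19 genes, 8 above 0 and 11 below (median -0.02). In edgeR 0 passed and 3 had an unadjusted p under 0.05 (6.38% of all genes), all higher in KO, and DESeq2 called 1, Hif3a (0.396% of all genes). Hif3a stood at 5.28, 5.32 and 7.2 CPM in WT and at 9.97, 9.14 and 12.6 CPM in KO (0.83, SE 0.13, edgeR adjusted p = 0.568). Adm, which encodes the vasodilator peptide adrenomedullin, stood at 1.63, 1.6 and 2.05 CPM in WT and at 2.74, 3.31 and 3.75 CPM in KO (0.89, SE 0.19, adjusted p = 0.735), and Car12 had a log2 fold change of 0.28 (SE 0.11). Vegfa and Slc2a1, targets of hypoxia-inducible factors, had -0.04 (SE 0.1) and 0.12 (SE 0.09) and overlapped between genotypes.

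By the likeness measure used for Ngb, the genes closest to Hbb-bs over 6 libraries were 4632428C04Rik (0.121), Apol8 (0.138), Hbb-bt (0.143), Hba-a1 (0.146) and Hba-a2 (0.153), so that 3 of the nearest 5 of 15454 genes were the other adult hemoglobin genes, which share reads or cells with it. Alas2 lay farther off, at 0.292, Ngb at 0.461 and Cygb at 0.575. Apol8, an apolipoprotein L gene, stood at 5.52, 4.69 and 4.86 CPM in WT and at 2.43, 3.69 and 7.94 CPM in KO, the library order of Hbb-bs within KO.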

How the data were processed

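Per the file headers, the deposited table of the authors gives every gene and library as a whole-number count and also in TPM and in FPKM. Tools named in the submitters' processing notes include Trimmomatic 0.36 and FastQC 0.11.2. For build, aligner, counter and strandedness nothing was given in the sources used here. Deposited counts were tested as they stand, the authors' TPM values served for levels per length and for alternatives, and the deposited FPKM values were only checked. Of the gene identifiers 99.6% were in GENCODE M21, 94.1% of these with identical coordinates.

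Genes were filtered with filterByExpr by genotype and tested with edgeR 4.0.16 (R 4.3.3, TMM scaling, robust quasi-likelihood fits, terms genotype and sex), with Benjamini-Hochberg adjustment at 0.05 over 18956 genes. Fold changes are log2, KO minus WT, and SE is the log2 fold change over the square root of F. The interaction fit leaves 2 residual degrees of freedom. Alternatives used DESeq2 1.42.0, limma 3.58.1, other scalings, filters, covariates and left-out libraries.

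The members and gene lists were chosen with earlier results of these data known. Named genes were the members, other globins, Adam17, defining markers, up to 3 genes per list with the smallest p, the 2 nearest tested named genes on each side of a member, and the 5 genes most like Ngb and Hbb-bs by log2 CPM with a prior count of 2; others were chosen after their values were seen. Of the listed symbols, 4 were matched by identifier under older symbols and Ahsp was not matched. Promoter sequences are from RefSeq (GRCm38.p6; 5 of 7 members matched), transcripts from GENCODE M21. Intervals of shares are 95% Wilson intervals from scipy 1.17.1.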

Additional observations from a re-analysis of the deposited data

How the results depend on the processing

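Under 18 alternative settings and 2 more chosen after seeing the data, 0 of the 6 members other than Ngb passed. Among these settings, males only and the fits without WT or KO replicate F1 make the same male comparison, so they are not separate alternatives. The Ngb value was below 0 in all 20, between -1 and -0.36, the latter without WT replicate F1 and KO replicate 1. Ngb was chosen on this contrast in the same libraries, so its steady sign is a description and no independent support. Alas2 also stayed below 0, while values near 0 changed sign. With DESeq2 size factors Hba-a1 and Hba-a2 were 0.00 and 0.00. With library totals Cygb was -0.11 and Hbb-bt -0.12. On log2(TPM + 1) Cygb was -0.22 and Hbb-bt -0.3, and on log2(TPM + 0.1) -0.23 and -0.31. Without a sex term Hba-a1 and Hba-a2 were 0.07 and 0.07, and in males only Hbb-bt was -0.22. With the paraventricular list as a covariate Hbb-bt was -0.08. Without WT replicate F1 and KO replicate 1 Hba-a1, Hba-a2 and Hbb-bs were 0.43, 0.42 and 0.39. In that fit, which has no sex term, the only female library left is from KO. Its values and calls therefore cannot be assigned to genotype alone. Leaving out each library in turn gave ranges of -0.06 to 0.22 for Cygb, -0.25 to 0.25 for Hba-a1, -0.24 to 0.24 for Hba-a2, -0.5 to 0.16 for Hbb-bs and -0.22 to 0.28 for Hbb-bt. The cause was not tested. Over all genes 1 passed in edgeR, with 4 under no filter, 75 in DESeq2, 4 and 5 on log2 TPM with the larger and the smaller pseudocount, 3 without a sex term, 18 in males, 0 with the covariate, 27 without WT replicate F1 and KO replicate 1, and 0 to 20 without each library in turn. In the sex contrast DESeq2 called 1 member. The replicate numbers shared by the genotypes did not pair the libraries (correlations of deviations -0.06, 0 and 0.06 for replicates 1, 2 and F1), and with the replicate block 0 genes passed and Hbb-bt was -0.01. Low counts limit the use of the red cell markers, since 10 of the 14 matched erythroid genes had too few to be tested.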

Other observations

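Genes of neutrophil granules stood apart in WT replicate 1. Ngp, a granule protein gene, was at 30.8 CPM there and between 0.441 and 2.87 CPM in the other 5 libraries, S100a8, which encodes a subunit of calprotectin, at 11.2 CPM against 0.347 to 1.43 CPM, and Camp, which encodes an antimicrobial peptide, at 6.3 CPM against 0 to 0.221 CPM. Ptprc, the pan-leukocyte marker, was at 5.77 CPM, within the range of 3.72 to 6.55 CPM in the other 5. Hemoglobin in the same library, at 333 CPM, was close to the 315 CPM of KO replicate 2, whose Ngp level was 0.693 CPM.

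Vwf, which encodes von Willebrand factor of endothelial cells, was higher in both female libraries. It stood at 24.5 and 22 CPM in the male and 47.3 CPM in the female WT libraries, and at 16.5 and 22.2 CPM in the male and 43.1 CPM in the female KO libraries. Its log2 difference, female minus male, was 1.09 (SE 0.14), which passed in DESeq2 (adjusted p = 1.11e-06) and not in edgeR (adjusted p = 0.221).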
